A study of Homo sapiens with 4 samples.

Results

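BCL6 occupancy was examined at 10 genes that hold germinal centre B cells in place or guide them elsewhere. The members were chosen by gene name and not by a cut on any measured value, but earlier results of these data were known. They are the 5 confinement genes S1PR2, P2RY8, GNA13, RGS13 and GCSAM and the 5 exit and homing receptors S1PR1, GPR183, CXCR4, CXCR5 and CCR7, out of 19974 protein-coding genes of the autosomes and chromosome X. All were found in the RefSeq annotation of GRCh38.p14, the assembly of hg38. The measurement was CUT&RUN, in which a nuclease tethered to an antibody cuts DNA next to the antibody's target and the fragments set free are sequenced. The antibody was against BCL6 and the nuclei came from SUDHL5, a cultured cell line of diffuse large B-cell lymphoma, with no treatment named. There were 2 biological replicates of that 1 condition and 1 line, each with its own peak list. Libraries with normal rabbit IgG were also labelled, and their values were not analysed here. The files hold no expression values, so whether SUDHL5 expresses the members was not measured.

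BCL6 is a transcriptional repressor that germinal centre B cells need, and it is frequently deregulated in lymphoma. Germinal centre B cells are kept in the follicle centre by S1PR2 and P2RY8, receptors that signal through the G protein subunit encoded by GNA13 and restrain migration. RGS13 shortens signalling from chemokine receptors, and GCSAM is a germinal centre adaptor protein that restrains motility. S1PR1 draws lymphocytes out of lymphoid tissue, GPR183 (EBI2) draws B cells to the outer follicle, CCR7 to the T zone and CXCR5 into the follicle. CXCR4 places germinal centre B cells in the dark zone, so the second group also holds receptors that act inside the follicle.

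Each deposited peak carries the fold enrichment of its summit over the local background and a −log10 q, both as the authors gave them. The replicate 1 list held 5237 peaks and the replicate 2 list 3536. Depth is unknown, since no library size is stated. The number of fragments over each summit, its pileup, was worked back from these values. Its median over chromosomes 1 to 22 and X was 23 fragments in replicate 1 and 21 fragments in replicate 2, which are small numbers to count. Intervals given below are exact Poisson 95% intervals of a pileup and cover counting error only. A peak was counted for a gene when its summit lay in the gene or within 50 kb of either end. A region was called shared when peaks of both lists overlapped by at least 1 bp.

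All 5 confinement genes had a peak in each list, while 3 of the 5 exit and homing receptors did. Of all 19974 protein-coding genes, 29.5% had a peak of replicate 1 in that window and 23.3% a peak of replicate 2. A peak of each list lay near 15.6% of them. S1PR1 and CCR7 had none in either list. The difference did not carry over to shared regions, which were found at 2 of 5 confinement genes (GNA13 and RGS13) and at 2 of 5 exit and homing receptors (GPR183 and CXCR4), against 10.2% of all genes. No test of the groups was made, because the genes were chosen with earlier results of these data known. Of the 8 members with a peak of each list, 4 had a shared region, and of all genes with a peak of each list 65.3% had one. Within 10 kb, replicate 1 had a peak at 5 of 5 confinement genes and at 2 of 5 exit and homing receptors, against 17.7% of all genes. Replicate 2 had one there at 4 of 5 confinement genes and at 1 of 5 exit and homing receptors, against 13.3%. At that distance, a shared region lay at 0 of 5 confinement genes and at 1 of 5 exit and homing receptors, CXCR4, against 5.78% of all genes. Within 100 kb the counts were again 2 of 5 and 2 of 5, against 15.1%.

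**Figure D1:**
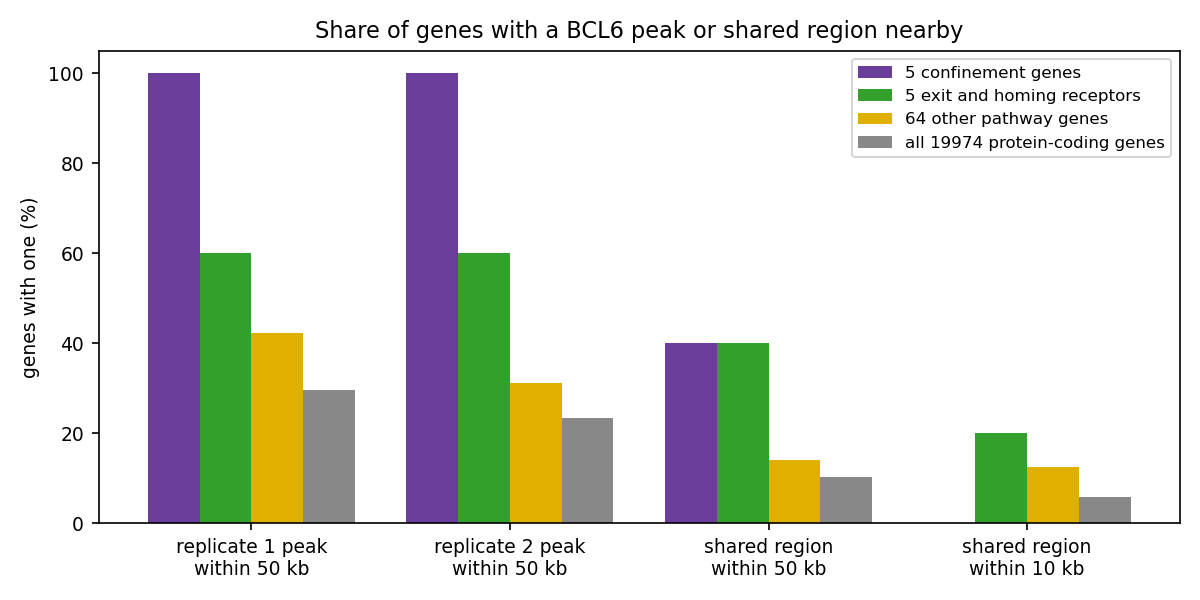
Percentage of genes with a BCL6 peak of replicate 1, a peak of replicate 2 or a shared region nearby, for 5 confinement genes, 5 exit and homing receptors, 64 other genes of the pathway and all 19974 protein-coding genes. All 5 confinement genes have a peak in each list, but both groups of 5 stand at 40.0% for shared regions within 50 kb, and within 10 kb no confinement gene has one.

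In all, 51 peaks lay at the members, 31 in replicate 1 and 20 in replicate 2. Of these, 8 peaks of replicate 1 (25.8%) and 8 of replicate 2 (40.0%) lay in a shared region. Over all peaks on chromosomes 1 to 22 and X the shares were 25.7% and 38.4%. The members' shares combine groups on opposite sides of these values. At confinement genes 3 of 21 replicate 1 peaks (14.3%) and 3 of 11 replicate 2 peaks (27.3%) lay in a shared region, against 5 of 10 (50.0%) and 5 of 9 (55.6%) at exit and homing receptors. Of the 5 peaks in each list there, 3 belonged to CXCR4 and 2 to GPR183. The confinement peaks were concentrated too. RGS13 held 8 of them in replicate 1 and 4 in replicate 2, and P2RY8 held 7 and 1. The difference between the groups was not tested. At confinement genes the peaks had median fold enrichments of 3.47 in replicate 1 and 4.27 in replicate 2, and at exit and homing receptors 3.74 and 3.49. The order of the groups thus differed between the replicates. The medians of all peaks were 3.55 and 3.74, and the confinement median in replicate 2 lay furthest from that of its list. The median pileup was 24.0 in each replicate at confinement genes, and 35.5 in replicate 1 and 27.0 in replicate 2 at exit and homing receptors. The local background differed in the same direction, with medians of 6.01 and 5.25 at confinement genes, against 7.46 and 5.83 at exit and homing receptors. The windows differ in length. Per 100 kb of window the confinement genes had 3.14 peaks in replicate 1 and 1.65 in replicate 2. For the exit and homing receptors these values were 1.83 and 1.64. Most of the 21 replicate 1 peaks behind the 3.14 were those of RGS13 and P2RY8, so that value does not describe each confinement gene.

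**Figure D2:**
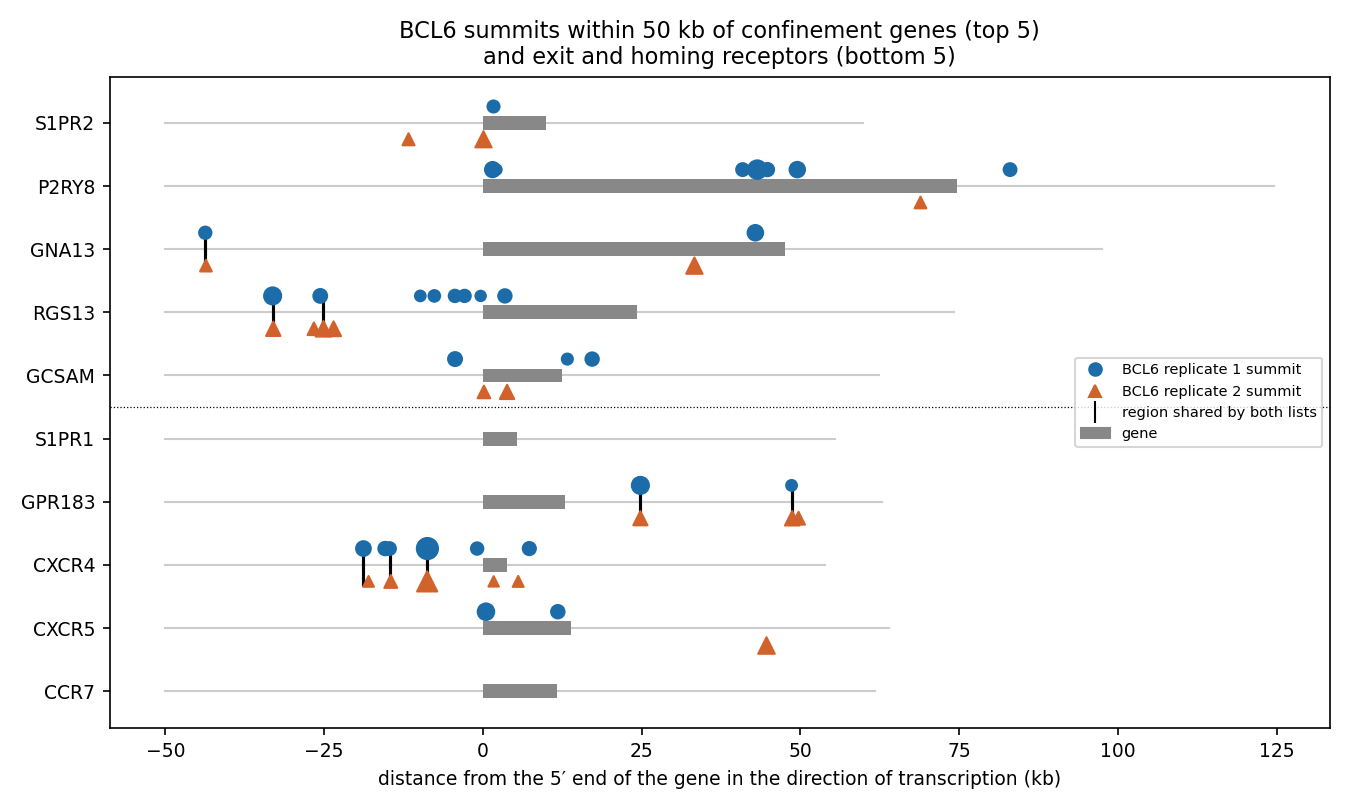
Position of each BCL6 summit, in kb from the 5′ end of the gene along the direction of transcription, for the 5 confinement genes (top) and the 5 exit and homing receptors (bottom). Circles are replicate 1 and triangles replicate 2, with marker area proportional to fold enrichment. Black strokes are shared regions, grey lines are the windows, and CCR7, for which no strand was used, is drawn left to right. The confinement genes have summits in all 5 windows but few pairs, CXCR4 has 3 shared regions on its upstream side, and the S1PR1 and CCR7 windows are empty.

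S1PR2, the sphingosine 1-phosphate receptor that holds B cells in the germinal centre, lies on chromosome 19 from 10221433 to 10231331 on the minus strand. A replicate 2 peak covered its start. This peak ran from 10231064 to 10231461, and its summit lay 94 bp inside the gene, with a fold enrichment of 5.44, a −log10 q of 11.4 and a pileup of 33 (22.7 to 46.3). The bases before the S1PR2 start are shown because this was the only confinement gene with a peak over the 250 bases before an annotated start. They are from RefSeq (GRCh38.p14, chr19:10231332-10231581, minus strand), with the 130 bases inside the replicate 2 peak in capitals.
S1PR2: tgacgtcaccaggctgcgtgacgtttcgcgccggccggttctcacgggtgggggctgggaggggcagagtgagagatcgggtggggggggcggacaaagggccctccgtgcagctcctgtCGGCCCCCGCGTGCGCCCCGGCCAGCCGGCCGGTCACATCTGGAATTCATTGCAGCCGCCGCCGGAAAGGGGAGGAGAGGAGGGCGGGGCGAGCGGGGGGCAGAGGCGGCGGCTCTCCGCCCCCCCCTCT
Replicate 1 had no peak over these bases. Its 1 peak at S1PR2 lay inside the gene, 1.58 kb from the start, with a fold enrichment of 3.02, a −log10 q of 2.37 and a pileup of 19 (11.4 to 29.7). The summits of the replicates lay 1483 bp apart and their peaks did not overlap, so both lists marked the gene near its start without sharing a region. The other replicate 2 peak, at a fold enrichment of 3.03, lay 11.7 kb before the start and nearer to MRPL4, a mitochondrial ribosomal protein gene 8.93 kb away.

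P2RY8, the second receptor of the confinement pathway, showed the largest gap between the lists in number of peaks. It spans 74.6 kb of chromosome X from 1462581 to 1537185, in the pseudoautosomal region, whose sequence is also present on the Y chromosome. How reads that match both copies were placed is not stated in the sources. Replicate 1 had 7 peaks in the window, 6 of them inside the gene, and replicate 2 had 1. At least 7 replicate 1 peaks were found at 0.721% of all protein-coding genes. That share was not matched for length, and the median span of all protein-coding genes was 24.2 kb. The strongest P2RY8 peak, from 1493562 to 1494324, had a fold enrichment of 7.10, a −log10 q of 16.0 and a pileup of 34 (23.5 to 47.5), and ranked 93 of 5237 in its list by fold enrichment. Its summit lay 443 bp downstream of a second annotated start of P2RY8, inside the gene and 43.2 kb from the outer start. A run of 4 peaks between 40.9 and 49.5 kb from the outer start held this one, and the other 3 had fold enrichments of 3.47 to 4.96. A further pair lay 1.53 and 2.13 kb inside the outer start, with fold enrichments of 4.82 and 2.31. The single replicate 2 peak lay 68.8 kb from that start, with a fold enrichment of 2.86, a −log10 q of 1.81 and a pileup of 18 (10.7 to 28.4). The closest summits of the lists were 14.2 kb apart. The seventh replicate 1 peak, at 3.43, lay 448 bp from the neighbouring gene ASMTL.

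GNA13 encodes the G protein subunit that both confinement receptors use and spans 47.5 kb of chromosome 17 from 65009289 to 65056740 on the minus strand. Each list had 1 peak inside the gene, at different places. The replicate 1 peak lay 42.9 kb from the start, towards the 3′ end, with a fold enrichment of 5.03, a −log10 q of 9.22 and a pileup of 29 (19.4 to 41.6). The replicate 2 peak lay 33.3 kb from the start, with 5.61, 8.60 and 24 (15.4 to 35.7). Both were above the median of their list in fold enrichment, and 9563 bp separated them. The only shared region of the window ran from 65100035 to 65100664, 43.7 kb upstream, with fold enrichments of 3.15 and 2.87. It was nearer to RGS9, a regulator of G protein signalling 37.0 kb away, than to GNA13.

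RGS13 spans 24.2 kb of chromosome 1 from 192636147 to 192660311 on the plus strand, and its window held the most peaks of any member. Replicate 1 had 8 peaks and replicate 2 had 4, and at least as many were found at 0.596% and 1.47% of all protein-coding genes. The upstream peaks formed 2 clusters, of which both lists marked the distal one and replicate 1 alone the proximal one. In the distal cluster, a shared region from 192602729 to 192603594 lay 33.1 kb before the start, with fold enrichments of 6.07 and 4.33 and pileups of 40 (28.6 to 54.5) and 29 (19.4 to 41.6). A second shared region from 192610354 to 192611189 lay 25.1 kb before the start, with 3.96 and 5.11 and a pileup of 22 (13.8 to 33.3) in each replicate. The first of these was nearer to RGS1, a related gene 23.1 kb away, and the second was nearer to RGS13. In the proximal cluster, replicate 1 had 6 summits from 9.85 kb before to 3.47 kb after the start, with fold enrichments of 2.25 to 3.71. The one closest to the start lay 350 bp before it, in the widest peak of the member set (2067 bp), at a fold enrichment of 2.25 with a pileup of 30 over a background of 12.8. The nearest replicate 2 summit was 23.5 kb before the start.

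GCSAM, also called HGAL, spans 12.4 kb of chromosome 3 from 112120839 to 112133248 on the minus strand and lies wholly inside the span of C3orf52. The closest summits of the lists were 4.55 kb apart. Replicate 2 had 2 peaks inside GCSAM, 167 bp and 3.81 kb from the start, with fold enrichments of 3.36 and 4.27 and −log10 q of 3.06 and 5.82. Replicate 1 had 3 peaks, all outside GCSAM. Of these, 2 lay 0.873 and 4.77 kb beyond its 3′ end, at 2.54 and 3.72, and 1 lay 4.38 kb before its start, at 4.03. The lists therefore flanked and covered the gene without a common region.

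**Figure D3:**
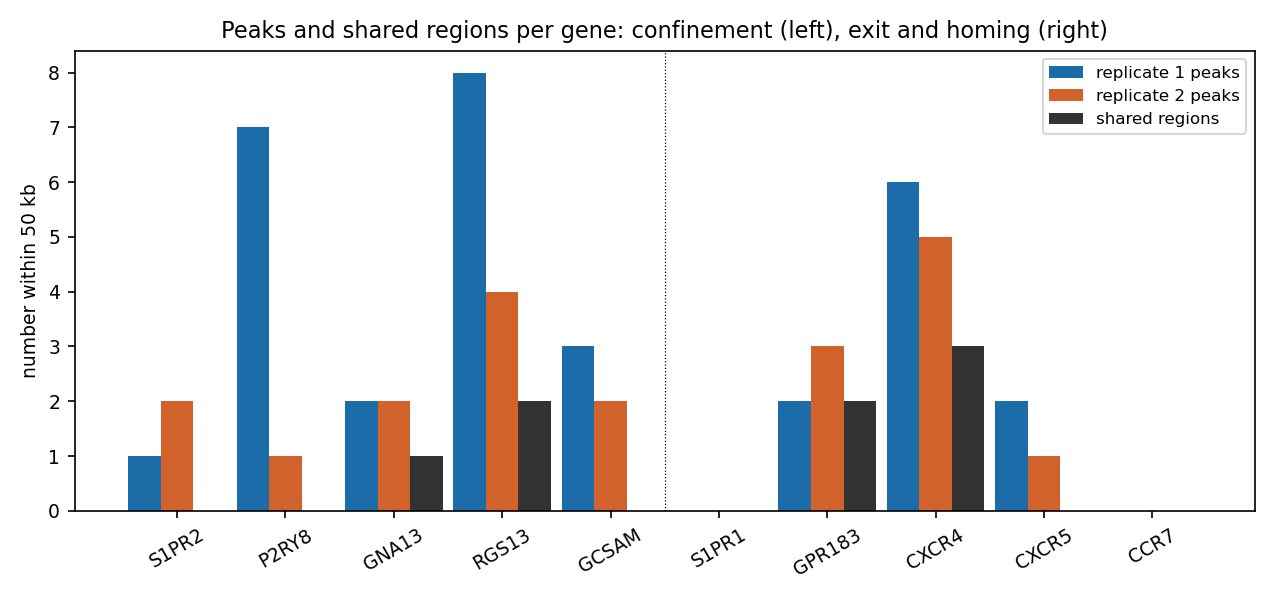
Number of replicate 1 peaks, replicate 2 peaks and shared regions within 50 kb of each gene. RGS13 and P2RY8 have the most replicate 1 peaks (8 and 7), but P2RY8 has 1 peak in replicate 2 and no shared region, while CXCR4 has 6 and 5 peaks and 3 shared regions.

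Among the exit and homing receptors, S1PR1, the egress receptor of lymphocytes, had no peak of either list in its window on chromosome 1 around 101236899 to 101242313. The nearest summits lay 341 kb away in replicate 1 and 211 kb away in replicate 2, with fold enrichments of 2.67 and 3.03, and the genes nearest to them were SLC30A7 and DPH5. CCR7, the receptor for T zone chemokines, on chromosome 17 from 40553769 to 40565472, likewise had none within 50 kb. Its nearest replicate 2 summit lay 82.3 kb away, with a fold enrichment of 3.66, nearest to SMARCE1. Its nearest replicate 1 summit lay 228 kb away, nearest to RARA, with 8.12 and a −log10 q of 28.7. An empty window says that no peak passed the authors' threshold there and not that BCL6 was absent.

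GPR183 spans 12.9 kb of chromosome 13 from 99294539 to 99307399 on the minus strand, inside the span of UBAC2. Neither list had a peak inside GPR183 or within 10 kb of it. A shared region from 99282122 to 99283230 lay 12.0 kb beyond its 3′ end, with fold enrichments of 6.09 and 4.22. Its summit pileups were 47 (34.5 to 62.5) in replicate 1 and 22 (13.8 to 33.3) in replicate 2, and these intervals did not overlap. Another shared region from 99258130 to 99258943 lay 35.9 kb beyond the 3′ end, with 2.44 and 4.39, and its summit was 287 bp from GPR18, a related receptor gene. A further replicate 2 peak there, at 3.40, had its summit inside GPR18. All 5 peaks of the GPR183 window also lay within UBAC2, so position alone does not tie them to GPR183.

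CXCR4 had the strongest region at any member. The gene spans 3.80 kb of chromosome 2 from 136114349 to 136118149 on the minus strand, and no other protein-coding gene reaches into its window. The region from 136125671 to 136127484 lay 8.73 kb before the start, with summits of the replicates 36 bp apart. It had a fold enrichment of 9.35 in replicate 1 and 8.47 in replicate 2, its −log10 q was 32.3 and 25.5, and its pileups were 55 (41.4 to 71.6) and 47 (34.5 to 62.5). By the smaller of both fold enrichments it ranked 15 of 1316 shared regions. Behind it, a region from 136131718 to 136133031 lay 14.7 kb before the start, with 3.42 and 3.49, and a region from 136135784 to 136137385 lay 18.8 kb before it, with 4.51 and 2.43. Replicate 1 had 1 more peak on this side, 15.4 kb before the start, at 3.72. At least 3 shared regions were found within 50 kb of 0.811% of all protein-coding genes.

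Closer to CXCR4, the lists marked different places. Replicate 1 had a peak from 136118273 to 136119932 with its summit 903 bp before the start, a fold enrichment of 3.19, a −log10 q of 6.98 and a pileup of 43 (31.1 to 57.9). Replicate 2 had a weak peak inside the gene from 136115987 to 136116711, at 2.25, a −log10 q of 1.52 and a pileup of 28 (18.6 to 40.5). Each of these peaks covered bases before an annotated start of CXCR4, and these are shown from RefSeq (GRCh38.p14), 250 bases each on the minus strand, with bases inside the peak in capitals. The outer start follows chr2:136118150-136118399, of which 127 bases lay in the replicate 1 peak, and the inner start follows chr2:136116236-136116485, which lay wholly in the replicate 2 peak.
CXCR4 outer: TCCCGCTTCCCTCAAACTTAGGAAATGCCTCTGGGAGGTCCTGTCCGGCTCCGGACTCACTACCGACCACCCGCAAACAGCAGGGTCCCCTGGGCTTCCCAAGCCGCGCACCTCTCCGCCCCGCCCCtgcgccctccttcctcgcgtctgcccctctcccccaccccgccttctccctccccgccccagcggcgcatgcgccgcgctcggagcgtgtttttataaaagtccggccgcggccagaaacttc
CXCR4 inner: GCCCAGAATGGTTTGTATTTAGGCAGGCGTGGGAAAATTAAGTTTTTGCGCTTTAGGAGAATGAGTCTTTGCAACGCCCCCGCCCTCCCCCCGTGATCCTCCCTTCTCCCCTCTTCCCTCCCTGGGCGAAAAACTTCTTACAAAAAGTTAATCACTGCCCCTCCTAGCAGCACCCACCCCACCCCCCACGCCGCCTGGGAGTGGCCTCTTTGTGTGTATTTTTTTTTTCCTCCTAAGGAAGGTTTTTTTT
Downstream of the gene, replicate 1 had a peak 3.51 kb beyond the 3′ end, at 3.59, and replicate 2 one 1.76 kb beyond it, at 2.51. In CXCR4 the regions found in both lists were thus the distal upstream ones, and the 4 peaks nearest the gene were each in 1 list.

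CXCR5, the follicle homing receptor, spans 13.9 kb of chromosome 11 from 118883892 to 118897787 on the plus strand, and its 3′ part overlaps BCL9L. Replicate 1 had a peak from 118883982 to 118884633, 487 bp inside the gene from its outer start, with a fold enrichment of 5.68, a −log10 q of 8.95 and a pileup of 24 (15.4 to 35.7). Its other peak, 11.8 kb from the start, had 3.75 on a pileup of 10 (4.80 to 18.4), the lowest of the member set, and lay 461 bp from BCL9L. Replicate 2 had no peak inside CXCR5. Its 1 peak in the window lay 30.6 kb beyond the gene and 2.50 kb from BCL9L, with 5.73, a −log10 q of 9.93 and a pileup of 27 (17.8 to 39.3).

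**Figure D4:**
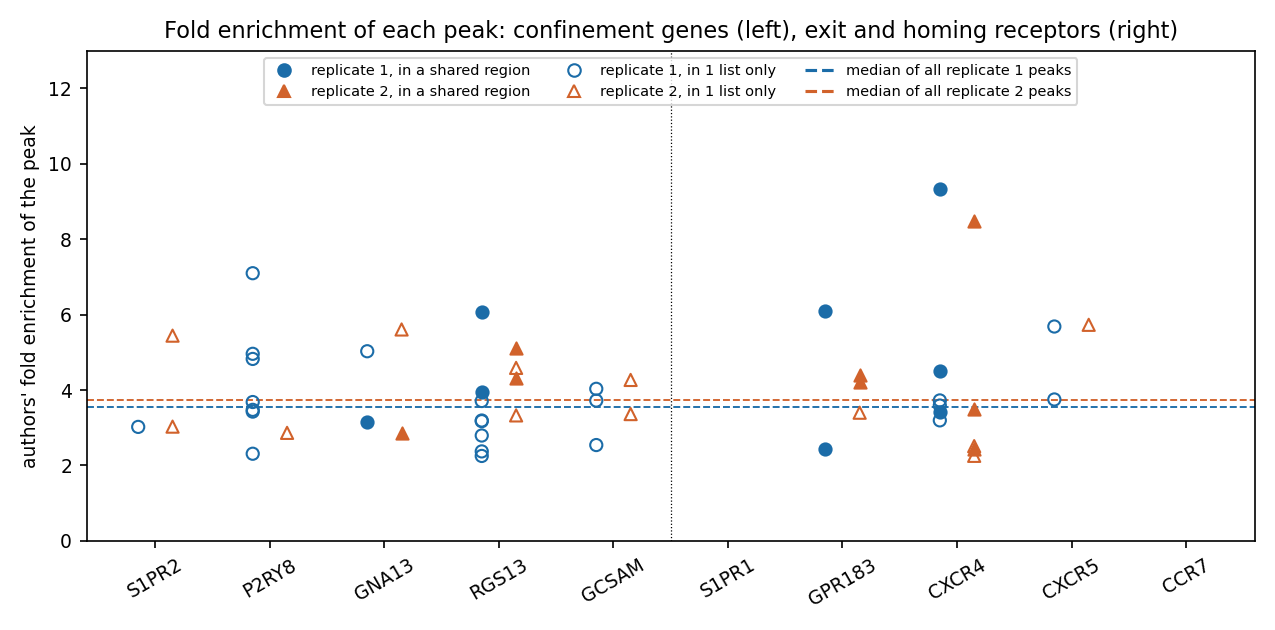
Fold enrichment of each peak as given by the authors, by gene, for replicate 1 (circles) and replicate 2 (triangles). Filled markers are peaks in a shared region, open markers are peaks in 1 list only, and dashed lines are the medians of all peaks on chromosomes 1 to 22 and X (3.55 and 3.74). CXCR4 holds the highest value in each replicate, 9.35 and 8.47, and the next highest, 7.10 at P2RY8, is in replicate 1 only.

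The starts of the members were compared next, with a distance of 2 kb chosen after the values had been seen. A summit of either list lay within 2 kb of the 5′ end of 4 of 5 confinement genes (S1PR2, P2RY8, RGS13 and GCSAM) and of 2 of the 4 exit and homing receptors with a strand (CXCR4 and CXCR5). For all 15813 protein-coding genes with a strand the share was 14.2%. A summit of each list lay there at S1PR2 and CXCR4, against 3.78% of all genes, and at neither did the peaks overlap. The summit nearest to the start of GNA13 was 33.3 kb away, and that nearest to the start of GPR183 was 24.8 kb away. Of the 51 peaks at the members, 36 had the member itself as the nearest protein-coding gene and 15 were nearer to another gene. Those 15 were all 5 peaks at GPR183, 3 at GCSAM, 2 each at GNA13 and RGS13, and 1 each at S1PR2, P2RY8 and CXCR5. Where a summit lay in 2 genes, the gene with the nearer end was taken. The 36 thus include both replicate 2 peaks inside GCSAM, which lie in C3orf52 too.

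Strong peaks, those that reached a −log10 q of 10, were few. At the members there were 5 of 31 in replicate 1, of which 4 lay in a shared region. In replicate 2 there were 2 of 20, of which 1 did. The exceptions were the P2RY8 peak in replicate 1 and the peak at the S1PR2 start in replicate 2. Over all peaks of that strength, 69.8% of 497 in replicate 1 and 84.7% of 327 in replicate 2 lay in a shared region. Across the 8 shared regions at the members, the pileup intervals of the replicates overlapped in 7. The same count over all 1316 shared regions is not given here, so whether 7 of 8 is usual cannot be told. Library sizes are unknown, so these pileups were not scaled to each other.

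**Figure D5:**
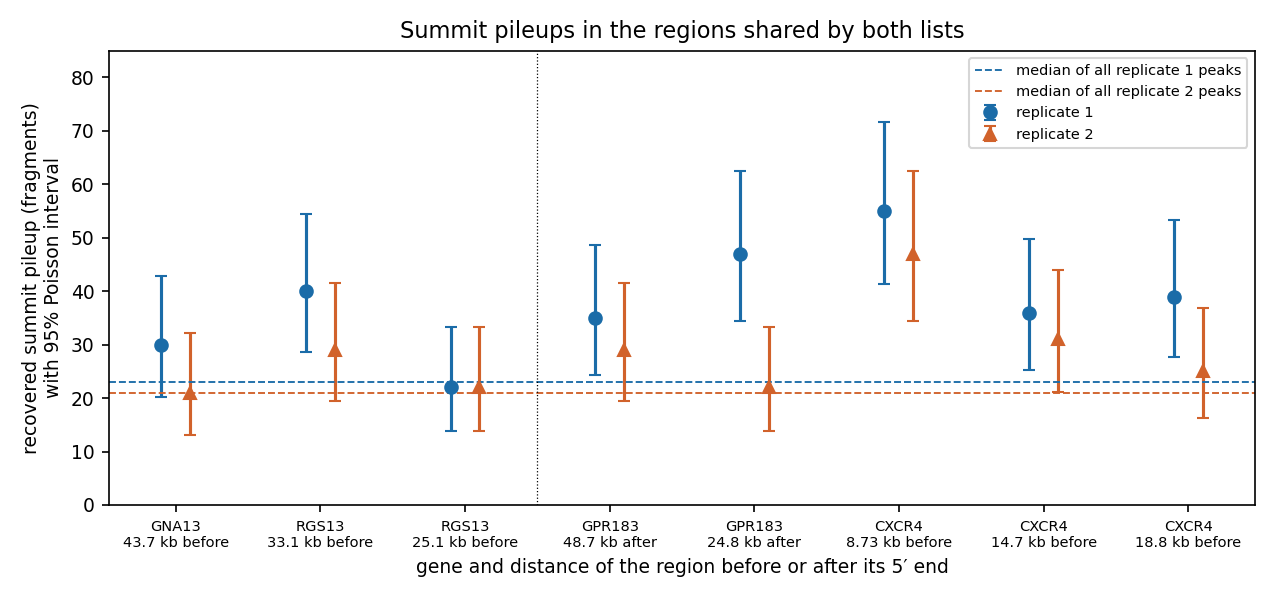
Recovered summit pileup, in fragments, with exact Poisson 95% intervals, in the 8 shared regions at the members, for replicate 1 (circles) and replicate 2 (triangles). The label under each gives the gene and the distance of the region before or after its 5′ end, and dashed lines are the medians of all peaks (23 and 21). The CXCR4 region 8.73 kb before the start has the highest pileups, 55 and 47, and the intervals of the replicates fail to overlap at 1 GPR183 region.

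The promoters of 9 members were in the RefSeq table, with 13 annotated starts, and CCR7 had none there. The 250 bases before each start were searched for TTCNNNGAA, the core of the BCL6 motif, which reads the same on both strands. They were also searched on both strands for the stricter TTCCTAGAA, every match to which is a match to the looser form too. The looser TTCNNNGAA was found once, as TTCTAAGAA at 245 bases before the GCSAM start, outside any peak. The stricter motif was found before none of the 13 starts. Of 22132 promoters of protein-coding genes, 5.92% held TTCNNNGAA and 0.244% held TTCCTAGAA. None of the 3 sequences printed for S1PR2 and CXCR4 held either motif.

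Other genes of the same pathways were taken from a fixed list of 64. Within 50 kb, 27 of them had a replicate 1 peak (42.2%), 20 a replicate 2 peak (31.2%) and 9 a shared region (14.1%). For all protein-coding genes the shares were 29.5%, 23.3% and 10.2%, the last near that of the list. Regulators of G protein signalling and of receptor desensitisation had shared regions at 4 of 9 (RGS1, RGS2, RGS16 and GRK6). GRK6, a kinase that desensitises receptors, had fold enrichments of 5.31 and 5.36 at a summit inside the gene 635 bp from an end, with −log10 q of 31.2 and 25.2. The 2 regions counted for RGS1 were those already described before RGS13. RGS16 had 2.86 and 4.50 at 11.6 kb, and RGS2 had 3.05 and 2.61 at 1.44 kb.

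Of the 3 regulators of exit receptors, CD69 and FOXO1 had shared regions. CD69, whose protein binds S1PR1 and removes it from the cell surface, had 18 and 9 peaks and 9 shared regions in its window, the strongest by the smaller value with 5.86 and 8.22 at 10.3 kb, nearer to CLECL1. FOXO1, a transcription factor of the dark zone programme, had 12 and 5 peaks and 1 shared region, inside the gene, with 4.79 and 3.03. The integrin subunit gene ITGB1 had 4.09 and 4.71 at 1.05 kb, the chemokine receptor gene CCR10 had 4.06 and 3.06 at 298 bp, and PIK3CD, which encodes a leukocyte phosphoinositide 3-kinase subunit, had 3.43 and 2.51 inside the gene. No shared region lay at any of the 7 other sphingosine 1-phosphate genes, the 4 chemokine ligands, the 3 oxysterol enzymes or the 2 genes that export and break down the P2RY8 ligand. Among 12 actin and motility genes, 8 had a replicate 1 peak, 2 had a replicate 2 peak and none had a shared region, against 29.5%, 23.3% and 10.2% of all protein-coding genes.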

How the data were processed

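BCL6 CUT&RUN peak lists of 2 biological replicates of SUDHL5 were used. The genome build was hg38, and the tools named are MACS2, Bowtie2, deepTools, bedtools, Picard, SAMtools, cutadapt and FastQC, per the submitters' processing notes. Their versions and settings and the caller's control are not stated in the sources used here. The deposited lists, called by the authors per replicate, give each peak a fold enrichment (a ratio of summit over local background), −log10 of p and q, and the distance of the summit from the peak start, an offset in bp per the narrowPeak layout. The smallest deposited −log10 q was 1.31 in each list, a q of about 0.05.

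Groups and replicate numbers came from the sample titles. The pileup n and background b were solved from fold = (n + 1) / (b + 1) and p as the Poisson probability of exceeding n at b. A whole n within 0.001 on the −log10 scale was found for all 5230 and 3529 peaks on chromosomes 1 to 22 and X. The solver and the counting of summits near genes were first tested on simulated data. The summit of a shared region was that of its peak with the higher −log10 q, and where a replicate had several peaks in one, the values are those of its most significant peak. Genes came from RefSeq GRCh38.p14, strands from the RefSeq promoter table. No genome sequence was used here, so the sequence of regions away from starts is not shown. Named genes are the members, the gene nearest to each of their regions or strongest peaks, and up to 14 genes of the pathway list with a shared region, by the smaller fold enrichment. The genes nearest to peaks beyond the windows were named after their values were seen. The members, the lists and the window were chosen with earlier results of these data known. No test across genes was made, and shares are set beside those of all protein-coding genes. Alternatives were windows of 10 and 100 kb, −log10 q of at least 5 or 10, reciprocal overlap of 50% or more, summits at most 200 bp apart, any overlap of the peak with the window and each list alone. Python 3.11.15, pandas 2.3.3, numpy 2.4.6, scipy 1.17.1 and matplotlib 3.10.9 were used.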

Additional observations from a re-analysis of the deposited data

How the results depend on the processing

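No paired analysis was possible because the replicates were compared with no other group. Each count below is that of confinement genes and then that of exit and homing receptors, where both are given. Of 80 values recomputed, 32 moved by at most 1.5 times, or for medians by less than the spread between replicates, and 48 moved further. The main counts of genes with a shared region were 2 and 2. They were 0 and 1 within 10 kb, 1 and 2 with a −log10 q of at least 5 (the second unmoved), 0 and 1 with at least 10, and 1 and 1 with reciprocal overlap. With each list alone they were 5 and 3, so the confinement genes had the higher count with single lists. With shared regions the counts were equal or higher at the receptors. The shared regions, 3 and 5, became 0 and 1 within 10 kb, 1 and 3 at a −log10 q of at least 5, 0 and 1 at 10, and 1 and 1 with reciprocal overlap. Replicate 1 peaks at confinement genes, 21, became 7 and 2 at a −log10 q of 5 and 10. Replicate 2 peaks there, 11, became 6 and 1, and 5 within 10 kb. Replicate 1 peaks at the receptors, 10, became 3 at a −log10 q of 10, 5 within 10 kb and 18 within 100 kb. Replicate 2 peaks there, 9, became 5 and 1 at a −log10 q of 5 and 10, 3 within 10 kb and 15 within 100 kb. Median fold enrichments at confinement genes became 4.96 and 6.59 in replicate 1 and 4.85 and 5.44 in replicate 2 at a −log10 q of 5 and 10. At the receptors they became 4.12 and 6.09 in replicate 1 and 4.39 and 8.47 in replicate 2, and in replicate 2 they were 2.51 within 10 kb and 4.10 within 100 kb. The pathway list, 9 genes with a shared region, had 4 and 2 at a −log10 q of 5 and 10, and 20 to 27 with each list alone. All protein-coding genes with a shared region, 2031, became 1155 within 10 kb, 896 and 477 at a −log10 q of 5 and 10, and 4660 to 5890 with each list alone. CXCR4 had a shared region under each matching rule, window and threshold tried, and RGS13 under each matching rule and window except 10 kb and each threshold except 10. Depth is unknown, and its part in how many regions were found in both lists was not tested.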

Other observations

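The peaks just beyond the 50 kb windows were examined as values only. At CXCR4 the next summits lay downstream, 56.8 kb away in replicate 1 with a fold enrichment of 3.17 and 61.3 kb away in replicate 2 with 4.10, and CXCR4 was still the nearest protein-coding gene to both. At GCSAM the next summits lay 142 kb away in replicate 1 and 141 kb away in replicate 2, with 3.55 and 4.77, nearest to ABHD10. At RGS13 they lay 120 kb away in replicate 1, with 6.35 and a −log10 q of 20.4, and 96.0 kb away in replicate 2, with 2.97 and 1.32, both nearest to RGS1. At GNA13 the next replicate 1 summit was 65.8 kb away, with 3.27, nearest to RGS9. The peaks farthest inside a window were those of GNA13, at 43.7 kb.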
